A study of Mus musculus with 48 samples.

Results

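Ribosomal protein genes were taken from the lung expression table as the genes whose symbol is Rpl or Rps, with or without a p, then a number and at most an a or x, and which reached an FPKM of 1 in 3 or more of 48 mice. FPKM is a count of sequenced fragments divided by transcript length and by library size. Of 74 symbols that fit the pattern, 70 passed, among 16994 genes tested and 47561 in the table. The 4 that did not pass, Rpl10, Rps4x, Rpl36a and Rpl39, lie on chromosome X and were listed at 0 in all mice.

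Lung RNA was sequenced from adult male and female mice of the strains C3H/hen (C3H) and C57Bl/6 (C57B), with 3 mice in each of 16 groups. Mice received saline or 1 injection of Aurothioglucose (ATG, 25 mg/kg), a gold compound that inhibits thioredoxin reductase, and then spent 96 h in room air or in hyperoxia (more than 95% oxygen). The sample labels give C57Bl/6, while the study's methods give C57Bl/6N and the series' design text a J substrain, so the substrain is uncertain. That design text also describes ATG for every group, whereas the labels give saline for 24 mice. The labels were followed, and every ATG value rests on them. Each combination of injection and air is called an arm here, and each of the 4 arms held 6 mice of each strain with both sexes pooled. Whole lung was measured, so fewer cells of a type and less RNA per cell cannot be told apart in any of these values.

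Ribosomal proteins of the large (Rpl) and small (Rps) subunit assemble with ribosomal RNA into the ribosome, which translates the messenger RNA of the cell. Their genes are among the most strongly transcribed ones, and their messengers start with a run of pyrimidines, the 5′ terminal oligopyrimidine (TOP) tract, through which the mTOR pathway controls their translation. The mouse genome also holds many processed copies of these genes, which lack introns and can be nearly identical to the messenger, and a read from a shared stretch can be given to either locus.

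How close such copies are was read from GENCODE M21 transcripts (GRCm38, the build of mm10). These are reference sequences, and the C3H alleles could not be compared, so the differences given below may not hold in C3H. The coding sequence of each of 9 members was aligned to the related gene with the highest mean FPKM in any strain and arm, and the pairs on which the strain differences turn are shown. Rps18 (5 exons, chr17:33951999-33955677) and Gm10260 (1 exon, chr13:97760072-97760632) differed at 4 of 456 coding bases. Their longest stretch without a difference was 185 bases, against reads of 150 bases. The 60-base windows with the most differences are printed 5′ to 3′ with the differing bases in capitals, for the minus strand of chr17:33952233-33952292 and of chr13:97760218-97760277.
Rps18: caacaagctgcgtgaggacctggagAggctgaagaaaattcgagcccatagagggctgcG
Gm10260: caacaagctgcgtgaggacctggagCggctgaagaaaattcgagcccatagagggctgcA

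Rpl26 (4 exons) and the processed pseudogene Gm15772 differed at 2 of 435 coding bases. One of these lies in the windows chr11:68903179-68903238 and chr5:3236599-3236658, both on the plus strand.
Rpl26: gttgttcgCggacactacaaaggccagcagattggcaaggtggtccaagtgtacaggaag
Gm15772: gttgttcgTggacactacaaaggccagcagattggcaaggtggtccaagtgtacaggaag

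Rpl29 (4 exons) and Gm10709 differed at 4 of 480 coding bases. Of these, 2 lie in the windows chr9:106431364-106431423 and chr9:7752122-7752181, both on the plus strand.
Rpl29: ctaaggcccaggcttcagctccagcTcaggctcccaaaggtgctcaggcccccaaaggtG
Gm10709: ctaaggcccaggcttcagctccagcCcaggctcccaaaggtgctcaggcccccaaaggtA

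Rpl15 and Gm10020 differed at 2 of 612 coding bases. Rps6 and Rps6-ps4 were identical over all 747 coding bases, as were Rpl12 and Gm10275 over 495 and Rpl10a and Rpl10a-ps1 over 651. A stretch that Rps6 (minus strand, chr4:86856800-86856859) shares in full with Rps6-ps4 (minus strand, chr2:75191757-75191816) shows such a pair, with no base in capitals.
Rps6 and Rps6-ps4: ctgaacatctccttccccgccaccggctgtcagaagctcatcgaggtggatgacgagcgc

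Members differed widely in level. The 5 with the highest median FPKM over the 48 mice were Rpl41 (2068), Rplp1 (1956), Rps15 (1505), Rps14 (1360) and Rps24 (1159), and the lowest was that of Rps29 (1.91). Rpl41 is a very short peptide of the large subunit, Rplp1 belongs to the stalk that recruits translation factors, and Rps14, Rps15 and Rps24 are small subunit proteins. The median over the members of the share of 30-base sequences that also occurred in another gene was 28.4%.

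Together the 70 members held a few percent of the FPKM sum of a mouse. In saline mice in room air the lowest, median and highest share were 3.33%, 3.40% and 3.64% in C3H and 3.99%, 4.16% and 4.90% in C57B. In saline mice in hyperoxia they were 4.16%, 4.62% and 5.28% in C3H and 5.75%, 6.48% and 7.43% in C57B. In neither arm did a C3H mouse reach the lowest C57B mouse. The median shares with relatives included were 7.43% in C3H and 8.02% in C57B in room air, and 9.67% and 12.2% in hyperoxia.

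Of the members, 4 were near absent in 1 strain, which was defined as a mean FPKM under 10% of that of the other strain in each of the 4 arms. These were Rps18, Rpl26 and Rpl29 in C3H and Rps6 in C57B. The rule used these strain values, so they are given as a description, and no share over all genes was taken for the count. With a limit of 20% Rpl15 (low in C57B) and Rps7 (low in C3H) were added, and with 5% Rps6 dropped out. The percentages of the lower strain over the 4 arms were 0.404 to 0.795 for Rps18, 0.401 to 0.658 for Rpl26, 0.286 to 0.552 for Rpl29 and 4.01 to 6.11 for Rps6, just inside the limit. Just outside were Rpl15 at 8.03 to 14.1 and Rps7 at 12.2 to 17.6, and the next member was Rpl3 at 25.5 to 34.1.

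Rps18 is a small subunit protein often used as a reference gene. Its lowest, median and highest FPKM in saline mice in room air were 1.43, 2.80 and 8.62 in C3H and 522, 611 and 709 in C57B. In hyperoxia they were 2.61, 4.56 and 6.36 in C3H and 629, 778 and 1005 in C57B. The strains did not overlap in either arm, and the same held under ATG, with 1.47 to 8.59 in C3H and 552 to 1028 in C57B. Its relative Gm10260 stood the other way round, with a mean of 754 in C3H and 12.3 in C57B in saline mice in room air and 1040 and 16.6 in hyperoxia.

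Rpl26 is a large subunit protein that also binds the messenger of p53. Saline mice in room air had a lowest, median and highest FPKM of 0.617, 3.67 and 7.95 in C3H and 766, 898 and 1065 in C57B. In hyperoxia they were 5.02, 6.70 and 9.48 in C3H and 819, 1083 and 1243 in C57B, again without overlap. Gm15772 had a mean of 944 in C3H and 143 in C57B in saline mice in room air, and 918 and 164 in hyperoxia.

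Rpl29 is a basic protein of the large subunit. Room air values of saline mice (lowest, median and highest FPKM) were 0.509, 0.698 and 1.32 in C3H and 261, 295 and 322 in C57B. In hyperoxia they were 1.67, 2.04 and 2.90 in C3H and 447, 514 and 633 in C57B. No relative of Rpl29 in the table was high in C3H. Gm10709 had a mean of 0.709 in C3H and 9.67 in C57B, and Uimc1, whose transcripts share 31.1% of its 30-base sequences, had 11.3 and 10.4.

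Rps6, the small subunit protein that is phosphorylated by the S6 kinases, was the member low in C57B. With saline and room air its lowest, median and highest FPKM were 90.4, 99.0 and 138 in C3H and 2.19, 4.39 and 5.74 in C57B. In hyperoxia they were 111, 123 and 157 in C3H and 4.84, 8.26 and 10.3 in C57B. Rps6-ps4 had the higher FPKM of the pair in both strains. Its mean was 426 in C3H and 509 in C57B in room air, and 557 and 677 in hyperoxia. Reads from within the identical coding bases cannot tell these loci apart, and how they were divided is not given. The median share of Rps6 in its sum with relatives was 19.4% in C3H and 0.751% in C57B in saline mice in room air.

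**Figure D1:**
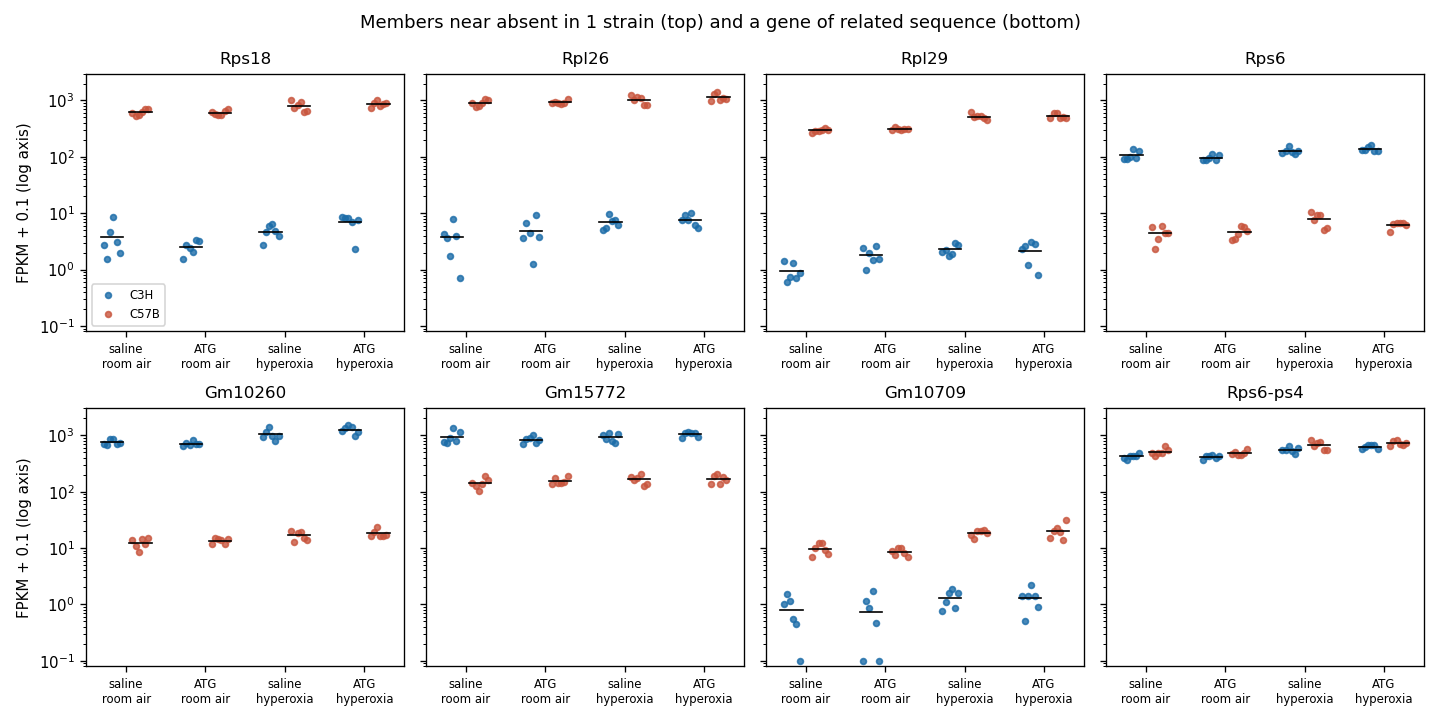
FPKM + 0.1 on a log axis, for each of 6 mice a strain and arm (points, C3H and C57B) with the mean (line), of the 4 members near absent in 1 strain (top row) and of a gene of related sequence (bottom row). Gm10260 and Gm15772 are high in C3H, where Rps18 and Rpl26 are low, Gm10709 is low in C3H like Rpl29, and Rps6-ps4 is close in both strains.

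Each near-absent member was then summed with its relatives, which are the genes that hold at least 10% of its 30-base sequences, and the sums were compared by exact permutation tests (two-sided, 6 mice against 6, adjusted over 16 tests, smallest possible p = 0.00216). The strain difference of Rps6 was not seen in the sum. Its summed FPKM in saline mice in room air was 535 ± 59.9 (SD, n = 6) in C3H and 516 ± 81.4 in C57B, a ratio of 1.04 (exact permutation p = 0.630), and the ratios in the other arms lay between 0.997 and 1.04 (adjusted p between 0.493 and 0.961).

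For Rpl26 the ratio of the sums, C3H over C57B, was 0.893 in saline mice in room air (exact permutation, adjusted p = 0.470), 0.756 under ATG in room air (adjusted p = 0.00385), 0.761 in saline mice in hyperoxia (adjusted p = 0.0346) and 0.789 under ATG in hyperoxia (adjusted p = 0.00693). The call in saline mice in hyperoxia was lost when mouse 7, 8, 19, 32, 43, 44 or 45 was left out, with ratios of 0.761 to 0.791 and adjusted p of 0.0567 to 0.0661. With genes that share at least 1 sequence of 30 bases included, the ratio under ATG in hyperoxia turned to 1.12 (exact permutation adjusted p = 0.0346). Weighting by length moved the ratio in saline mice in room air to 0.627 (exact permutation adjusted p = 0.00866). In that arm Rpl26 itself made up a median of 85.3% of the sum in C57B and 0.480% in C3H. The C57B side thus holds mostly the values that chose Rpl26, and the p-values of its sums are given as a description.

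For Rps18 the sum was higher in C3H. The ratio was 1.62 in saline mice in room air and 1.78 in hyperoxia, and 1.56 and 1.97 under ATG (exact permutation adjusted p = 0.00385 in each arm). In saline mice in room air Rps18 itself made up a median of 96.9% of the sum in C57B and 0.289% in C3H. The C57B side thus holds mostly the values that chose Rps18, and the p-values of its sums are given as a description. One of the relatives of Rps18, Gm26619 (plus strand, chr13:97751112-97760965), lies over Gm10260 (minus strand), and whether the counting used strand is not given in the sources used here. The sum was therefore also formed without it, an alternative chosen after seeing the data. The ratios were then 1.20, 1.15, 1.29 and 1.42 in saline mice in room air, ATG mice in room air, saline mice in hyperoxia and ATG mice in hyperoxia, with exact permutation adjusted p of 0.0416, 0.0416, 0.0819 and 0.00989. With every gene that shares at least 1 sequence of 30 bases included, the ratios were 0.967, 0.960, 0.938 and 1.06 in the same order (exact permutation adjusted p = 0.0882, 0.0297, 0.0346 and 0.0416), so the direction of the Rps18 sum depends on which relatives enter.

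The sum of Rpl29 stayed far lower in C3H. It was 17.0 ± 2.93 (SD, n = 6) in C3H and 319 ± 21.4 in C57B in saline mice in room air, a ratio of 0.0534, and the ratios in the other arms were 0.0454, 0.0297 and 0.0280. Rpl29 itself makes up most of this sum in C57B, so these are the values that chose it and carry no test. The tests of Rpl29 were still counted when the p-values of the other sums were adjusted. How reads with several matches were shared between these loci is not given in the sources used here, and its part in these values was not tested.

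Across all members, strain was tested with limma on log2(FPKM + 1), a scale that understates the change of low genes, with a threshold of 0.05 on the p adjusted over all 16994 genes. With saline in room air 4 members were higher and 17 lower in C3H, while 3.61% of all genes were higher and 7.28% lower. Under ATG in room air it was 3 higher and 31 lower, against 7.27% and 9.29% of all genes. With saline in hyperoxia it was 2 higher and 23 lower, against 14.8% and 10.9%. Under ATG in hyperoxia it was 3 higher and 22 lower, against 12.9% and 11.5%. In every arm more members were lower than higher in C3H, and the share of members that were lower was 24.3%, 44.3%, 32.9% and 31.4% in that order.

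The median log2 difference of the members, C3H minus C57B, was -0.17 in saline mice in room air, -0.27 under ATG in room air, -0.24 in saline mice in hyperoxia and -0.15 under ATG in hyperoxia. The medians over all genes were -0.09, -0.04, 0.05 and 0.01. After median ratio scaling the median of the members in saline mice in room air was -0.052, with 32 of 70 above 0 in place of 13, and 4 members were higher and 13 lower. In the other arms this scaling gave medians of -0.22, -0.32 and -0.18, with 3 higher and 23 lower, 2 and 23, and 3 and 23. Of all 16994 genes it gave 923 higher and 989 lower in saline mice in room air. In the other arms it gave 1522 and 1387, 2236 and 2396, and 2052 and 2223 genes. With each member summed with its relatives the counts were 3 higher and 16 lower, 3 and 33, 3 and 22, and 3 and 16, in the same order. Members without relatives enter these counts with their own values.

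Of the members, 15 passed the threshold in the same direction in all 4 arms, 2 higher and 13 lower in C3H, and 11 of these were not near absent. No share over all genes was taken for a call in all 4 arms, so this count is a description. Rpl15, a core protein of the large subunit, was the other member higher in C3H. With saline and room air its lowest, median and highest FPKM were 164, 183 and 253 in C3H and 20.6, 24.7 and 31.9 in C57B, a log2 difference of 2.93 (SE 0.10, limma adjusted p = 3.26e-08). Its relatives did not make up for this: Gm10020 had a mean of 123 in C3H and 0.673 in C57B, and Rpl15-ps2 of 36.9 and 0.922, so the log2 difference of the sum was larger, at 3.66 (limma adjusted p = 8.65e-10).

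Rps7, a small subunit protein, was lower in C3H together with its relative. Its lowest, median and highest FPKM in saline mice in room air were 7.74, 14.7 and 20.0 in C3H and 95.9, 121 and 143 in C57B, a log2 difference of -2.99 (SE 0.18, limma adjusted p = 2.79e-06). Gm9493 had a mean of 2.35 in C3H and 227 in C57B, and the log2 difference of the sum was -4.19.

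Among the other members lower in C3H in all 4 arms were Rpl3, Rpl32, Rpl34, Rplp0, Rplp1, Rps2, Rps26 and Rps3. Rpl3 lies beside the peptidyl transferase centre. Its lowest, median and highest FPKM in this arm were 19.0, 34.1 and 39.9 in C3H and 75.0, 101 and 114 in C57B, with no overlap and a log2 difference of -1.57 (SE 0.17, limma adjusted p = 0.000209). Rps2, a small subunit protein near the decoding site, had 96.0, 183 and 204 in C3H and 400.0, 481 and 580 in C57B, a log2 difference of -1.54 (SE 0.15, limma adjusted p = 0.000123). Both differences were nearly as large in the sums with relatives, at -1.55 for Rpl3 and -1.34 for Rps2. Rps2 made up a median of 84.8% of its sum in C3H and 96.8% in C57B in this arm, so its sum adds little.

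Rps26, a small subunit protein, differed by -0.72 (SE 0.07, limma adjusted p = 0.000139) in saline mice in room air. With relatives its log2 difference was -0.14 (limma adjusted p = 0.236), -0.21 under ATG (adjusted p = 0.0687), -0.28 in saline mice in hyperoxia (adjusted p = 0.0218) and -0.23 under ATG in hyperoxia (adjusted p = 0.0862). The stalk proteins Rplp0 and Rplp1 differed by -0.46 and -0.52 in saline mice in room air, and Rpl34 by -0.77. Rpl32 and Rps3 differed by -0.52 and -0.66. Leaving out 1 mouse at a time ended the call of Rps3 in 8 of 12 fits in saline mice in room air, and that of Rpl32 in 9 of 12 under ATG in hyperoxia.

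**Figure D2:**
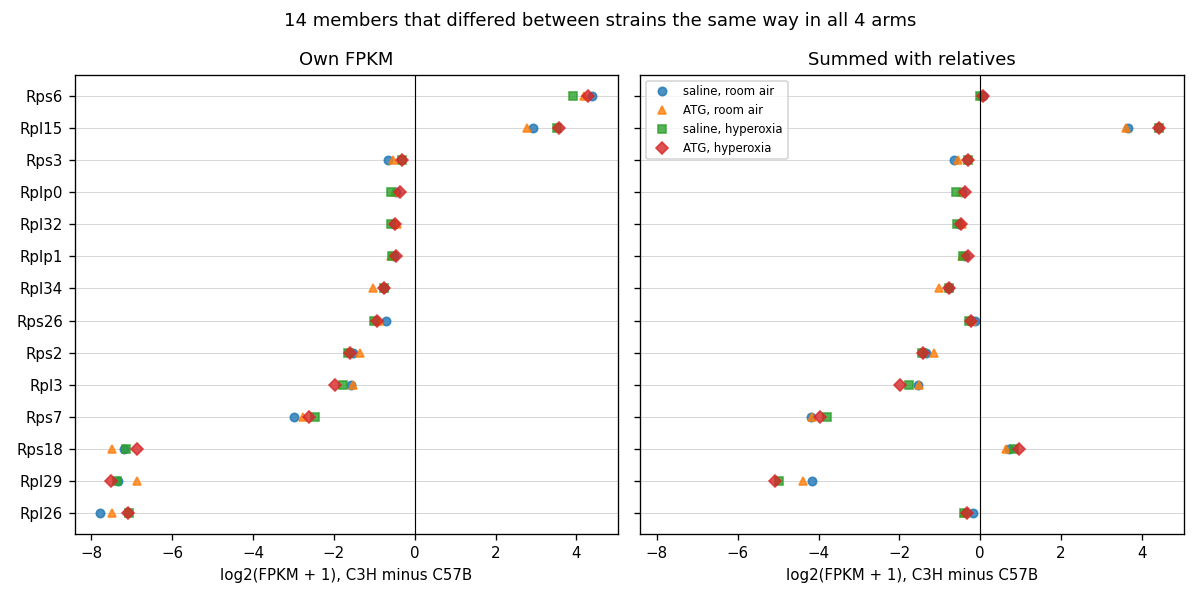
Log2 differences, C3H minus C57B, of 14 members past the threshold in the same direction in all 4 arms, from their own FPKM (left) and from the sum with relatives (right), with 1 marker for each arm. In the sums Rps6 lies near 0, Rpl26 and Rps26 lie closer to 0 than alone but below it, Rps18 is above 0, and Rpl29, Rps7 and Rpl15 stay far from 0.

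Markers of other cells moved with strain in saline mice in room air. All 4 B cell markers and 3 of 4 neutrophil markers were lower in C3H, and of 4 tested red cell markers 2 were higher and 1 lower. Of the lung cells, 2 of 3 alveolar type 2 markers were lower and 2 of 3 alveolar type 1 markers higher in C3H. The alveolar type 1 sums did not overlap (3085 to 5509 in C3H and 2495 to 3055 in C57B). The summed FPKM of the B cell markers was 19.0 to 60.3 in C3H and 70.5 to 100.1 in C57B. In hyperoxia, where 23 members were lower in C3H, the B cell sums of saline mice overlapped (14.0 to 20.2 in C3H and 13.4 to 28.9 in C57B). Those of 4 alveolar macrophage markers were 254 to 779 and 738 to 1775, and under ATG in hyperoxia they did not overlap (82.8 to 419 and 658 to 1664). The markers were split, with 1 of these 4 higher and 2 lower in C3H with saline in hyperoxia. Under ATG in hyperoxia 2 were lower and 0 higher. Both club cell markers were higher in C3H in both hyperoxia arms. The part of these cells in the strain differences was not tested.

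Hyperoxia was compared with room air within each injection over both strains. In the 24 saline mice 36 members rose and 6 fell, while 30.8% of all genes rose and 27.7% fell. In the 24 ATG mice 57 members rose and 1 fell, against 34.4% and 25.6% of all genes. The median log2 change of the members was 0.27 in saline mice and 0.46 in ATG mice, and over all genes it was 0.01 and 0.05. After quantile normalization the medians of the members were 0.12 and 0.27, with 41 and 54 of 70 above 0 in place of 57 and 67. All 36 members that rose in saline mice also rose in ATG mice, and no share over all genes was taken for this overlap. Of these 36, 31 also rose as sums with relatives, and so did 55 of the 57 that rose in ATG mice. A member without relatives enters with its own value, and a sum made up mostly of the member has to move with it. These overlaps were thus partly fixed in advance and are given as a description. Quantile normalization changed the counts to 30 risen and 9 fallen in saline mice and to 43 and 5 in ATG mice. Of all 16994 genes, 5030 then rose and 4855 fell in saline mice, and 5077 and 4900 in ATG mice. This normalization turned the direction of Rpl30 in saline mice and of 4 members in ATG mice, among them Rpl37, Rpl7 and Rplp2.

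Rpl12, which sits at the base of the stalk, had the largest rise. In saline mice its lowest, median and highest FPKM were 4.24, 7.17 and 9.34 in C3H and 8.29, 10.7 and 11.8 in C57B in room air. In hyperoxia they were 71.1, 80.2 and 94.3 in C3H and 202, 242 and 263 in C57B. No mouse in hyperoxia overlapped one in room air, and the log2 change was 3.89 (SE 0.10, limma adjusted p = 1.72e-16) in saline and 4.68 (SE 0.13, limma adjusted p = 3.26e-16) in ATG mice.

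Reads from within the coding bases that Rpl12 shares with its copy cannot tell these loci apart, and how they were divided is not given. The FPKM of this identical copy, Gm10275, was far higher and changed less. Its mean in saline mice was 665 in C3H and 656 in C57B in room air, and 945 and 1516 in hyperoxia. The median share of Rpl12 in its sum with relatives was 1.12% in room air and 7.94% in hyperoxia in C3H, and 1.56% and 13.0% in C57B. The log2 change of the sum was 1.02 (limma adjusted p = 2.28e-09) in saline mice.

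Rpl10a, a large subunit protein near the exit site, behaved in a like way. In saline mice its lowest, median and highest FPKM were 10.3, 14.1 and 18.6 in C3H and 14.1, 15.4 and 25.0 in C57B in room air, and 25.9, 37.4 and 60.6 in C3H and 92.5, 126 and 150.4 in C57B in hyperoxia. The log2 change was 2.09 (SE 0.12, limma adjusted p = 2.17e-11). Rpl10a-ps1 had means of 122 and 128 in C3H and of 151 and 151 in C57B in room air and hyperoxia, and the log2 change of the sum was 0.50 (limma adjusted p = 1.64e-05).

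Rps2 rose as well. In saline mice its lowest, median and highest FPKM were 96.0, 183 and 204 in C3H in room air and 438, 453 and 484 in hyperoxia. In C57B they were 400.0, 481 and 580 in room air and 1220, 1440 and 1587 in hyperoxia. Within each strain the mice of the 2 arms did not overlap, and the log2 change was 1.52 (SE 0.09, limma adjusted p = 3.30e-11). The sum with relatives changed as much (1.52), but it could hardly differ, because Rps2 made up most of it. The median share of Rps2 in its sum in saline mice was 84.8% in C3H and 96.8% in C57B in room air, and 84.7% and 96.9% in hyperoxia.

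**Figure D3:**
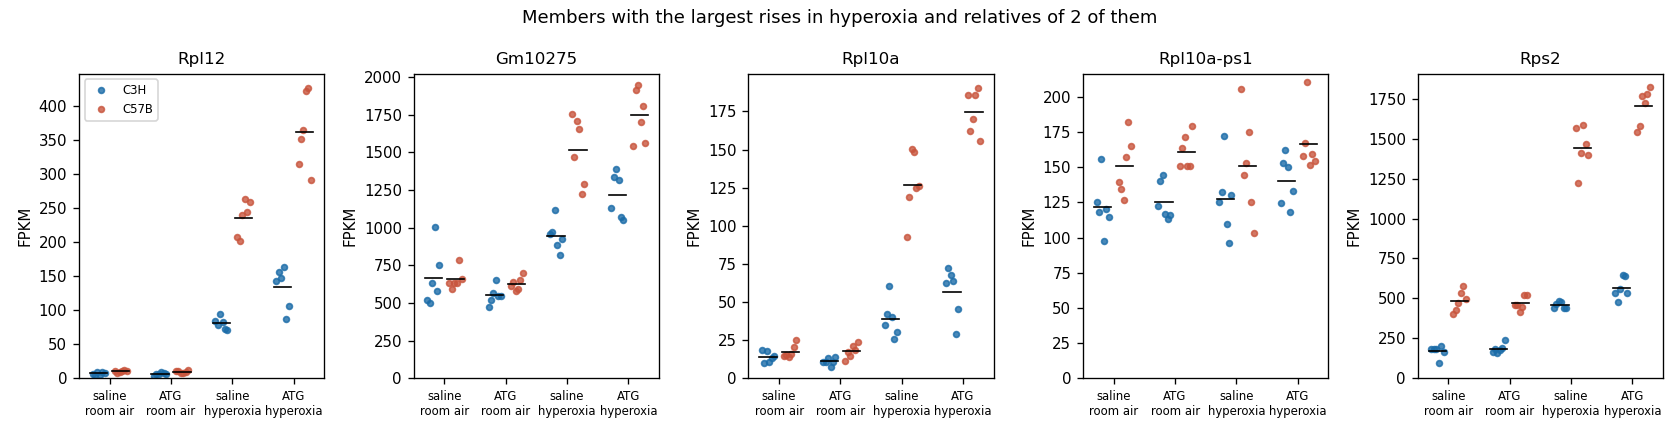
FPKM (linear axes from 0) for each of 6 mice a strain and arm with the mean (line), of Rpl12, Rpl10a and Rps2 and of the copies Gm10275 and Rpl10a-ps1. Within each strain all 3 members are higher in both hyperoxia arms than in room air, and they are highest in C57B, whereas the points of Rpl10a-ps1 overlap between the arms.

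The next largest rises in saline mice were those of Rplp0, the core of the stalk (log2 change 1.04, SE 0.06, limma adjusted p = 9.12e-12), Rps27 (0.94), Rpl32 (0.85), Rpl29 (0.80), Rpl3 (0.76), Rpl4 (0.61) and Rpl27 (0.60). The sums with relatives of Rplp0 (1.04), Rpl32 (0.85), Rpl3 (0.75) and Rpl4 (0.61) rose by nearly the same amount, which a sum made up mostly of the member has to do. Rps27 with its 1 relative, Rps27rt, was at -0.033 (limma adjusted p = 0.761) as a sum. Rpl29, near absent in C3H, had a mean FPKM in C57B of 295 in room air and 520 in hyperoxia.

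The 6 members that fell in saline mice were Rpl27a (-0.66, SE 0.10, limma adjusted p = 1.49e-05), Rps21 (-0.64), Rps15 (-0.35), Rpl31 (-0.31), Rpl35a (-0.30) and Rpl37a (-0.26). Rpl27a was the one member that also fell in ATG mice (-0.30, limma adjusted p = 0.00326). Its sum with relatives did not fall, with log2 changes of 0.14 (limma adjusted p = 0.110) in saline and 0.36 (adjusted p = 6.90e-05) in ATG mice. The sum of Rpl31 was at 0.044 (limma adjusted p = 0.639), whereas the sums of Rps21 (-0.66), Rps15 (-0.35), Rpl35a (-0.30) and Rpl37a (-0.30) fell.

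In ATG mice the 10 largest rises were those of Rpl12, Rpl10a, Rps2 (1.73), Rplp0 (1.29), Rpl32 (1.00), Rps27 (0.99), Rpl3 (0.98), Rps26 (0.86), Rpl41 (0.82) and Rps18 (0.82). Of these, 7 are also among the 10 largest in saline mice. Rps18 was near absent in C3H, with an FPKM of at most 8.59 in ATG mice in hyperoxia, so its change there rests on low values. In C57B its sum with relatives had means of 629 in room air and 899 in hyperoxia under ATG.

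**Figure D4:**
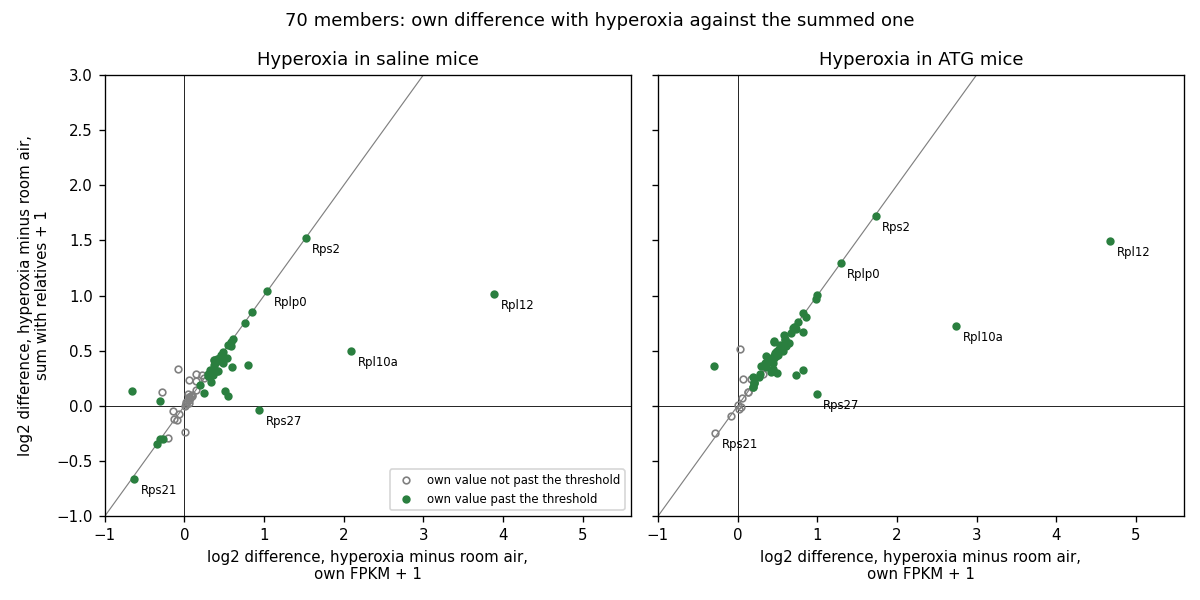
Each point is 1 of the 70 members. The log2 difference between hyperoxia and room air from its own FPKM + 1 (x axis) is set against that from the sum with relatives + 1 (y axis), in saline mice (left) and ATG mice (right), and the grey line marks equal values. Most members lie near the line, where a sum made up mostly of the member has to lie, and Rpl12, Rpl10a and Rps27 lie far below it.

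Tested in each strain alone, hyperoxia raised 28 members and lowered 2 in saline C3H mice, against 24.4% and 12.2% of all genes, and raised 32 and lowered 5 in saline C57B mice, against 24.7% and 29.4%. In both strains 25 members rose and 2 fell (Rpl27a and Rps21), and none rose in one strain and fell in the other. No share over all genes was taken for this overlap of the strains. Median ratio scaling left 13 risen and 3 fallen in C3H, while 2917 of all 16994 genes rose and 3169 fell. The 18.6% of members that rose there was close to the share of all genes. In C57B this scaling left 32 and 3, against 4471 and 4856 genes. Quantile normalization left 18 and 7 in C3H, against 3091 and 3001 genes, and 24 and 9 in C57B, against 4666 and 4392.

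The difference between the strains in the change was tested as an interaction in the 24 saline mice. It was higher in C3H for 1 member and lower for 3, while 8.4% of all genes were higher and 2.71% lower. The change of Rpl10a was 1.38 in C3H and 2.80 in C57B, a difference of -1.42 (SE 0.24, limma adjusted p = 0.000997). That of Rpl12 was 3.40 and 4.38, a difference of -0.98 (SE 0.19, limma adjusted p = 0.00368). That of Rpl24, a large subunit protein at the subunit interface, was 0.10 and 0.72, a difference of -0.62 (SE 0.19, limma adjusted p = 0.0399), a call lost in 14 of 24 fits with 1 mouse left out. Rpl15 went the other way, with 0.16 in C3H and -0.44 in C57B, a difference of 0.60 (SE 0.15, limma adjusted p = 0.0181).

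In sums with relatives the difference was -0.74 for Rpl12 (limma adjusted p = 0.00643) and 0.76 for Rpl15 (adjusted p = 0.00229), while those of Rpl10a (-0.45, adjusted p = 0.0678) and Rpl24 (-0.35, adjusted p = 0.236) did not pass. The median of all genes in this comparison was 0.15 as deposited and 0.00 after median ratio scaling, so values are relative to that shift. Median ratio scaling gave 0 members higher and 4 lower, and quantile normalization 3 and 3. Of all 16994 genes the former gave 921 higher and 1050 lower, and the latter 855 and 895. Without mouse 2 (male C3H, saline, room air) 9 members passed, and no share over all genes was taken for that fit.

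ATG against saline was tested over both strains within each air. In room air no member passed by limma, while 0.0118% of all genes were higher and 0.00588% lower. Of the members 5 had an unadjusted limma p under 0.05, and no share over all genes was taken for that count. The median log2 difference of the members was -0.06. In hyperoxia 11 members were higher with ATG and none lower, against 3.53% and 1.42% of all genes. The 10 largest were Rpl12 (0.65, SE 0.09, limma adjusted p = 0.000614), Rpl10a (0.50), Rpl41 (0.33), Rpl15 (0.30), Rps2 (0.27), Rplp0 (0.26), Rpl3 (0.26), Rpl22 (0.24), Rplp1 (0.23) and Rps26 (0.20). Leaving out 1 mouse at a time ended the call of Rpl3 in 21 of 24 fits, of Rplp1 in 18, of Rps26 in 17, of Rpl22 in 15 and of Rpl15 in 5, and Rpl3 and Rps26 did not pass as sums with relatives. In hyperoxia Rpl12 had a lowest, median and highest FPKM of 86.3, 145 and 163 in ATG-treated C3H mice against 71.1, 80.2 and 94.3 with saline, and these overlapped. In C57B it had 292, 358 and 427 with ATG against 202, 242 and 263 with saline, and these did not. The count depended on the scaling: it was 6 after quantile normalization and 1 after median ratio scaling. Of all 16994 genes the former gave 350 higher and 413 lower, and the latter 240 and 387.

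Sex was compared in saline mice in room air, male minus female. Of the members 1 was higher in males and none lower, against 0.147% and 0.277% of all genes. This was Rps16, a small subunit protein (log2 difference 0.70, SE 0.12, limma adjusted p = 0.0429), whose sum with relatives differed by 0.31 (adjusted p = 0.147). Without mouse 2, 27 members were higher and 2 lower in males, and without any of the other 11 mice none passed. No share over all genes was taken for these fits with a mouse left out. A fit of all 48 mice gave 19 higher, while 420 of all 16994 genes were higher and 1495 lower. In the fit of the 12 mice, 59 of 70 members were above 0, and 32 had an unadjusted limma p under 0.05. No share over all genes was taken for these counts either. The median log2 difference was 0.25 for the members and -0.11 for all genes.

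Genes that work with the ribosomal proteins were counted from lists, on the FPKM as deposited and under no other scaling. Of 39 tested genes of ribosome biogenesis, which make and process ribosomal RNA, 37 rose and 2 fell with hyperoxia in saline mice, against 30.8% and 27.7% of all genes, with a median log2 change of 1.04 against 0.01 over all genes. The 3 largest were Gnl3 (2.05, SE 0.09, limma adjusted p = 1.36e-12), a nucleolar GTPase, Rrp12 (1.70) and Nop58 (1.57). Between strains, 28 of them were lower and 1 higher in C3H in saline mice in hyperoxia, where the median was -0.50 and 10.9% of all genes were lower and 14.8% higher. In room air 3 were lower and 1 higher, close to the 7.28% and 3.61% of all genes. For 8 the change with hyperoxia was smaller in C3H by the interaction test and for none larger, against 2.71% and 8.4% of all genes, led by Ncl (-1.26, limma adjusted p = 0.00149), which encodes nucleolin.

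Of 77 mitochondrial ribosomal protein genes 44 rose and 10 fell with hyperoxia in saline mice (median 0.27), against 30.8% and 27.7% of all genes, led by Mrps18b (2.06), Mrpl3 (0.95) and Mrps5 (0.93). With ATG in hyperoxia 24 were higher and none lower, against 3.53% and 1.42%. These 24 were not counted under the other scalings, which in that comparison took the 11 ribosomal protein members to 6 (quantile normalization) and 1 (median ratio scaling). Of 12 tested ribosomal protein genes and relatives that the symbol pattern misses 5 rose and 2 fell with hyperoxia in saline mice, led by Rps27l (1.49), Rpsa (0.90) and Rpl7l1 (0.83), against 30.8% and 27.7% of all genes. Of 20 translation factors and other genes known for TOP messengers 14 rose and 1 fell (median 0.40), against the same 30.8% and 27.7%, led by the snoRNA hosts Snhg1 (2.18) and Gas5 (0.71) and by Eif3l (0.69).

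The TOP tract was looked for in RefSeq promoters (GRCm38.p6) as a C followed by 4 letters that are each C or T, in the 10 bases before and the 10 from the annotated start, on both strands. Of the members, 50 had an entry, with 60 start sites. On the sense strand 31 of the 60 windows (51.7%) held the motif, against 26.7% of 13867 windows of genes tested and 25.5% of all 32851 windows. On the other strand it was 16.7% of the members' windows and 29.5% of those of genes tested. Of the members that fell with hyperoxia in saline mice, Rpl27a and Rpl31 held the motif, and Rps15 and Rpl37a did not. Rps21 and Rpl35a held it at some of their start sites only. Whether the motif goes with the change in hyperoxia was not tested. Windows of 4 members that held it are printed as examples, 5′ to 3′ with the run in capitals. These are Rpl12 (plus strand, chr2:32961702-32961721), Rps2 (plus, chr17:24720053-24720072), Rpl27a (plus, chr7:109519185-109519204) and Rps6 (minus, chr4:86857358-86857377).
Rpl12: agcaggatccgtCTTTTCgg
Rps2: gtcgagatctcgcgCTTCTT
Rpl27a: cgtgagCTCCTCCCTTTTCC
Rps6: gaagtcgggCCTCTTTTTCg

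Rplp0 rose and its window (plus strand, chr5:115559457-115559476) held no such run.
Rplp0: cgggtttcgaggaccgcctg

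Markers of lung and blood cells also moved with hyperoxia in saline mice. All 4 B cell, all 4 T cell and all 4 tested red cell markers fell, as did 4 of 5 heart muscle markers and both club cell markers, while all 4 neutrophil markers rose. Of 3 alveolar type 2 markers 1 rose and 2 fell, of 3 alveolar type 1 markers 2 fell, of 4 alveolar macrophage markers 2 rose and 1 fell, of 4 markers of cycling cells 3 fell and of 3 endothelial markers 1 rose. The alveolar type 2 sums lay between 25159 and 48589 in room air and between 5647 and 21311 in hyperoxia, without overlap. The alveolar macrophage sums of C57B lay between 194 and 594 in room air and between 738 and 1775 in hyperoxia. Over both strains the summed FPKM of the red cell markers lay between 3341 and 67957 in room air and between 305 and 2004 in hyperoxia. That of the neutrophil markers lay between 133 and 766 in room air and between 159 and 6195 in hyperoxia. Scgb1a1, the club cell secretory protein, is a large part of the FPKM sum, and without it the median share of the members in saline mice was 4.08% in C3H and 5.35% in C57B in room air, and 4.91% and 6.66% in hyperoxia. The part of these shifts in the changes of the members was not tested.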

How the data were processed

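The authors aligned paired reads of 150 bases to mm10 with GSNAP and made FPKM with Cufflinks. The deposited table holds 1 FPKM for each gene and mouse and no counts, so depth is unknown. The annotation, the use of strand and the treatment of reads with several matches are not given in the sources used here. FPKM summed to between 510933 and 748290 a mouse. A gene with a failed estimate in 7 mice was left out.

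Values were put on the scale log2(FPKM + 1), and limma 3.58.1 (R 4.3.3; eBayes with trend) was run on them after it was tested on simulated data. P-values were adjusted by Benjamini-Hochberg over all genes that reached an FPKM of 1 in 3 or more mice. No pair of libraries shared most of their values, and the median correlation of a mouse with others of its strain and arm was 0.928 to 0.974.

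Relatives were genes of the table that hold at least 10% of a member's 30-base sequences in GENCODE M21 transcripts (Python 3.11.15, Biopython 1.88). Named were members near absent in 1 strain, those called for strain in all 4 arms, up to 10 rises and 10 falls in a comparison, the 5 with the highest level, and the 3 largest changes of each list. Members and lists were chosen with earlier results of these data known. The alternatives were other pseudocounts, filters, scalings, samples in the fit and definitions of relatives. Some items are not reported here.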

Additional observations from a re-analysis of the deposited data

Results flagged for a closer look

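In 7 of 112 groups of 6 mice, for values of 9 members, the sums of the near-absent ones and the members' share of the FPKM sum, 1 mouse lay far from the others by Dixon's test. Chance flags about 1 in 20 groups. Rps18 was 2.18 in C3H mouse 11 (ATG, hyperoxia), against 6.86 to 8.59 in the others. Rps6 was 157 in C3H mouse 33 (saline, hyperoxia), against 111 to 128, and 4.49 in C57B mouse 46 (ATG, hyperoxia), against 6.10 to 6.68. Rpl15 was 27.2 in C57B mouse 48 (ATG, hyperoxia), against 20.1 to 22.0. Rpl26 was 1082 in C57B mouse 18 (ATG, room air), against 883 to 950. Rps2 was 96.0 in C3H mouse 1 (saline, room air), against 165 to 204, and 241 in C3H mouse 6 (ATG, room air), against 158 to 187.

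The change with hyperoxia differed between strains for 4 members by the interaction test, with log2 differences of -1.42 for Rpl10a, -0.98 for Rpl12, -0.62 for Rpl24 and 0.60 for Rpl15 (limma adjusted p = 0.000997, 0.00368, 0.0399 and 0.0181). The call of Rpl24 was lost in 14 of 24 fits with 1 mouse left out.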

How the results depend on the processing

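No paired analysis was possible because each mouse has its own number. Of 102 values of named members, 99 kept direction and call in a fit of all 48 mice, 102 with the filter set over the mice fitted, 100 with a pseudocount of 0.1, 94 after quantile normalization, 91 with no filter, 90 after median ratio scaling and 79 as sums with relatives, an alternative chosen after seeing the data. A sum made up mostly of the member is bound to stay close to the member's own value.

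As sums, 8 turned direction: Rps18 between strains (0.70 and 0.65 in room air with saline and ATG, 0.83 and 0.97 in hyperoxia), Rpl27a (0.14 in saline and 0.36 in ATG mice), Rpl31 (0.044) and Rps27 (-0.033) with hyperoxia in saline mice.

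The members called for ATG in hyperoxia, 11, were 6 with no filter, 6 after quantile normalization and 1 after median ratio scaling, and 5 to 13 with 1 mouse left out (5 to 7 without mouse 7, 8, 10, 20, 23, 24, 31, 32, 35, 36, 44, 45, 47 or 48). Those called for sex, 1, were 0 with no filter, 2 after quantile normalization, 2 after median ratio scaling, 19 in the fit of 48 mice, 0 as sums, and 0 to 29 with 1 mouse left out. Strain by hyperoxia gave 3 to 9.

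With relatives that hold at least 30% of its sequences, the Rps18 ratio was 0.00595, 0.00404, 0.00585 and 0.00795. This limit leaves out Gm10260, and the values are the same as for Rps18 alone, so they chose Rps18 and carry no test. With relatives that hold at least 1 sequence, the summed Rps18 ratio was 0.967, 0.960, 0.938 and 1.06. It was 1.29 in saline mice in hyperoxia, no longer past the threshold, with overlapping relatives counted once. The Rps6 ratio in that arm was 1.03 with weighting by length and 0.960 to 1.04 with 1 mouse left out. The Rpl26 ratio in saline mice in room air was 0.627 with weighting by length, past the threshold. At the 30% limit it was 0.00401, the same as for Rpl26 alone, so this value chose Rpl26 and carries no test. The ratio of the Rpl26 sums was 1.12 under ATG in hyperoxia with relatives that hold at least 1 sequence. In saline mice in hyperoxia it was 0.730 to 0.791 with 1 mouse left out. The sums thus depend on which relatives enter.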
